A study of Rattus norvegicus with 55 samples.

Results

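Ephx2 divided the 55 rat kidney arrays of this series into 23 arrays with a high reading and 32 arrays with a low one. The members were chosen by a measured value: the Ephx2 probe set X60328_g_at was sorted on the log2(intensity + 15.82) scale and cut at the widest gap that left 10 or more arrays on each side. The 23 arrays above the cut are therefore sorted samples and not a treatment, a strain or any other group that the labels name. Every array holds total RNA of kidney, is titled SHR kidney (SHR commonly stands for spontaneously hypertensive rat) and is described as Wistar-derived, on both sides of the cut. A stage word in the description puts 13 arrays in an immature, 14 in a young and 14 in a mature group, and 14 arrays have no stage word. The labels used here give no age, sex, substrain, diet, genotype or treatment, and do not say that the arrays came from separate animals, so p-values cover only sample-to-sample spread, which could be technical.

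Ephx2 encodes soluble epoxide hydrolase. The enzyme turns epoxyeicosatrienoic acids, lipids made from arachidonic acid by cytochrome P450 epoxygenases, into diols that are less active on blood vessels and on tubular sodium transport. It is abundant in kidney and liver, and its inhibitors have been studied in hypertension models. Its renal level is known to differ between rat strains and colonies, which is given as background only, since the labels here do not divide the arrays by strain or colony.

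The array carries 4 probe sets for Ephx2, and the accession X60328 gave rise to both X60328_g_at and X60328_at. X60328_g_at was used for the cut because it was the brighter of the pair. It read 271.7 to 1138.5 on the 23 arrays above the cut, with a median of 644.7, against 16.9 to 167.2 on the 32 arrays below it, with a median of 35.9. The lowest array above the cut was replicate 11 without a stage word, at 271.7, and the highest array below it was immature replicate 12, at 167.2, a gap of 0.652 on the log2 scale. These values made the split, so they are a description and carry no test.

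Both sides of the cut held arrays of every stage word. In the immature group 5 arrays lay above the cut and 8 below, and in the young, mature and unworded groups 6 lay above and 8 below. Within the immature group X60328_g_at read 302 to 863.1 above the cut and 21.4 to 167.2 below it. In the young group it read 387.5 to 1056.5 above and 19 to 41.5 below. In the mature group it read 371.7 to 926.3 above and 16.9 to 108.3 below. In the group without a stage word it read 271.7 to 1138.5 above and 25.5 to 37.6 below. The low readings were closest together in the young and unworded groups, while single immature and mature arrays below the cut reached over 100 units.

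**Figure D1:**
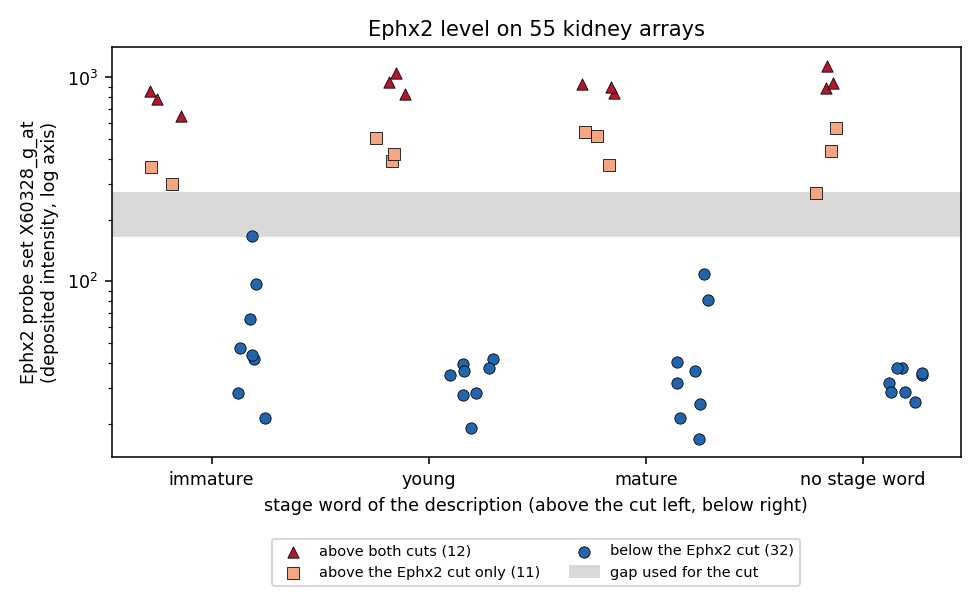
Deposited intensity of the Ephx2 probe set X60328_g_at (log axis) on each of the 55 arrays, by stage word, with arrays above the cut on the left of each group and arrays below it on the right. The grey band is the gap between 167.2 and 271.7 at which the arrays were cut, and triangles mark the 12 arrays that also had X56596_at above 600.

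The second split of these arrays, at an intensity of 600 on X56596_at, a probe set of the MHC class II gene RT1-Bb, lay inside this one. All 12 arrays with X56596_at above 600 were among the 23 arrays above the Ephx2 cut, 3 in each stage group. The other 11 arrays above the Ephx2 cut had X56596_at between 80.1 and 247.1. They were 2 immature, 3 young and 3 mature arrays and 3 without a stage word. None of the 32 arrays below the Ephx2 cut exceeded 600 on X56596_at, where they read 92.2 to 263. The crossing therefore gives 3 classes: 12 arrays above both cuts, 11 above the Ephx2 cut only and 32 below the Ephx2 cut.

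The Ephx2 reading itself was ordered over these classes. X60328_g_at read 644.7 to 1138.5 (median 894.6) on the arrays above both cuts, 271.7 to 565.8 (median 420.6) on the arrays above the Ephx2 cut only, and 16.9 to 167.2 on the arrays below it, so no 2 classes overlapped. X65083cds_at followed with 300.8 to 829.2, 204.9 to 446.9 and 11.4 to 121.9 in the same order, with some overlap between both classes above the cut. On X60328_at the arrays above both cuts read 357.7 to 758.2. The 9 young, mature and unworded arrays above the Ephx2 cut only read 40.2 to 126.1 on X60328_at, and the 2 immature arrays of that class read 340.3 and 216.7, against 12.2 to 112.8 on the arrays below the cut. On X60328_at, then, most of the middle class lay close to the arrays below the cut. In the technical sets described below, all 9 lie in the third set and the 2 immature arrays in the second. Stage word and technical set can therefore not be told apart within the middle class. The fourth probe set, rc_AI104882_s_at, read 828.3 to 1516 above both cuts, 566.8 to 1354.3 above the Ephx2 cut only and 268.8 to 1110.4 below it, with overlap throughout. All 4 are readings of the gene that made the split and are described without a test.

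**Figure D2:**
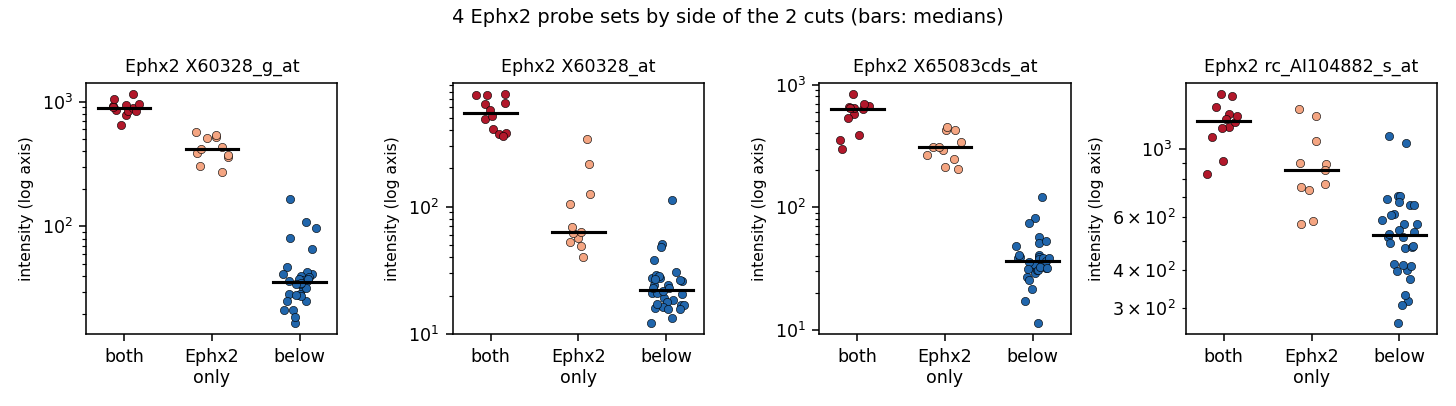
Deposited intensity (log axis) of the 4 Ephx2 probe sets in the 12 arrays above both cuts, the 11 arrays above the Ephx2 cut only and the 32 arrays below it, with bars at the medians. The classes are apart on X60328_g_at, whereas on X60328_at 9 arrays of the middle class read 40.2 to 126.1 and on rc_AI104882_s_at all classes overlap.

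The choice between the paired probe sets mattered. Cut by its own widest gap, X60328_at would have placed 14 arrays above, all of them among the 23, namely the 12 above both cuts and the 2 immature arrays of the middle class. None of these 14 lies in the third technical set described below, so that division is partly confounded with the technical set. The same fit on that division called 496 probe sets, 187 higher and 309 lower, and 59 of the 66 calls described next were among them.

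With the 4 Ephx2 probe sets left out, 6551 probe sets were tested in limma with stage word as covariate, arrays above against arrays below the Ephx2 cut. At an adjusted p under 0.05, 66 passed, which is 1.01% of those tested. Of them 28 were higher above the cut (0.427%) and 38 lower (0.58%). Before adjustment 930 had a p under 0.05. With arrays centred on their medians 38 were higher and 24 lower, and after quantile normalisation 35 and 28, so the share of rises depended on the scaling. All 66 had the same sign in each of the 4 stage groups. They were picked on the difference pooled over these same arrays, so this is largely fixed by the selection and is no replication. The share with 1 sign over all 6551 probe sets was not taken. None of the 6551 probe sets separated the 23 arrays from the 32 without overlap. Of the 66, 54 carry 1 gene symbol and belong to 49 genes. A log2 difference here is above minus below, on the log2(intensity + 15.82) scale, which understates the change of dim probe sets.

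Spock2, which encodes the extracellular matrix proteoglycan testican-2, had the largest fall. It read 20.1 to 64.9 (median 25.2) above both cuts and 16.8 to 47.4 (median 21.8) above the Ephx2 cut only, against 23.7 to 683.9 (median 237.4) below the cut. The log2 difference was -2.32 ± 0.21 (SE, adjusted p = 1.5e-11). The mean above the cut, 5.46 on the log2 scale, lies under the 5.91 required of a probe set's mean over all arrays, so Spock2 was tested because of its level below the cut, as also holds for 2 other of the 66 calls (3 in all). With no filter its adjusted p was 2.4e-11. The size depends on the offset, with -2.81 at an offset of 1 and -1.59 at 4 times the offset used. The classes above the cut overlapped each other, and most arrays below it were brighter than every array above it. At a limit of 50, set after the values were seen, 20 of the 23 arrays above the cut were under it and 28 of the 32 arrays below the cut were over it. The 4 exceptions below the cut were 1 array in each stage group: immature replicate 12 at 32.6, young replicate 12 at 35.9, mature replicate 3 at 23.7 and replicate 3 without a stage word at 38.5. On X60328_g_at these 4 read 167.2, 39.2, 25.1 and 28.6, so only the immature one stood near the Ephx2 cut.

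Hba-a3, an alpha globin gene, had the largest rise among genes represented by their brightest probe set. It read 153.8 to 550.3 (median 282.7) above both cuts and 97.5 to 249.6 (median 205.9) above the Ephx2 cut only, against 26.7 to 300.1 (median 76.3) below, a log2 difference of 1.33 ± 0.16 (adjusted p = 1.6e-07). The middle class lay between the others, and the highest array below the cut was young replicate 12, one of the 4 with a low Spock2 reading. The other 3 of those arrays read 145, 120.2 and 201.9 on Hba-a3, in the order immature, mature and unworded. Other red cell genes did not pass, with 0 of the 5 measured members of the erythroid list called. At the 1.04% called among all named genes, 0 of 5 does not set this list apart. Its median difference was 0.13, against -0.05 over all named genes. The 5 members ran from -0.21 to 0.22, with 3 of them above 0. Hbb differed by 0.22 ± 0.10 (adjusted p = 0.289) and Alas2, the erythroid enzyme of haem synthesis, by 0.13 ± 0.12 (adjusted p = 0.623). On the arrays with X56596_at under 600 the list median was -0.10, against -0.05 over all named genes. Hbb differed by 0.15 and Alas2 by -0.145 on those arrays. The summed erythroid reading had a median of 11490 (7874 to 20792) above both cuts, 10534 (6326 to 13761) above the Ephx2 cut only and 9417 (6518 to 19399) below, and no member was at 0 on all arrays. Its part in the Hba-a3 difference was not tested. In whole kidney RNA, more cells of a type and more RNA per cell cannot be told apart.

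Of the 66 calls, 20 had the mean of the middle class nearer to that of the arrays above both cuts. Ino80e, a subunit of the INO80 chromatin remodelling complex, was one of them. It read 526.5 to 930.3 (median 738.7) above both cuts, 456.2 to 903.5 (median 625.4) above the Ephx2 cut only and 192.2 to 937.3 (median 428.2) below, with a log2 difference of 0.70 ± 0.11 (adjusted p = 4.1e-05). Sod3, the extracellular superoxide dismutase, rose by 0.54 ± 0.13 (adjusted p = 0.016), with medians of 4456, 4157 and 3253 in the same order of classes. Gsto1, a glutathione transferase of the omega class, rose on both of its probe sets, by 0.61 on AB008807_at (adjusted p = 0.0012), where the middle class was nearer to the arrays above both cuts, and by 0.45 on the brighter AB008807_g_at (adjusted p = 0.036), where it was nearer to the arrays below. Among the falls of this kind, Arpc4, a subunit of the actin-branching Arp2/3 complex, differed by -0.52 ± 0.11 (adjusted p = 0.0071), with medians of 763, 934.3 and 1102. Hes2, a transcriptional repressor of the Hes family, differed by -0.49 ± 0.11 (adjusted p = 0.0079).

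Ephx2 was held apart, but the rest of its pathway could be tested. Of 28 measured genes of the eicosanoid and epoxide list 1 was called (3.57%), against 1.04% of all named genes. A single call does not set the list apart. The called gene was Ephx1, the microsomal epoxide hydrolase. It read 1611.1 to 3705.2 (median 2917) above both cuts, 2179.7 to 3938.2 (median 2621) above the Ephx2 cut only and 983.1 to 3590.9 (median 2209) below, a log2 difference of 0.33 ± 0.08 (adjusted p = 0.019). The classes overlapped widely. Without the stage covariate its adjusted p was 0.069. Cyp4a1, a fatty acid hydroxylase, differed by 0.36 ± 0.10 (adjusted p = 0.062), Alox15, a lipoxygenase, by 0.40 ± 0.16 (adjusted p = 0.227) and Ptgfr, the prostaglandin F receptor, by -0.26 ± 0.11 (adjusted p = 0.234). The median difference of the list was 0.04, against -0.05 over all 3834 named genes tested.

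For the other 46 of the 66 called probe sets the mean of the 11 arrays above the Ephx2 cut only was nearer to the mean below the cut than to that above both cuts. This is a description without a test, and for some of them, such as Tmeff1, Csrp3 and Idi1, the middle class lay about midway. The same count over all 6551 probe sets was not taken, so 20 against 46 does not set the called probe sets apart. Cela1, an elastase of the pancreatic family, read 911.5 to 1582.9 (median 1367) above both cuts, apart from 228.6 to 510.7 (median 395.3) above the Ephx2 cut only and 165.5 to 520.5 (median 321.8) below. Over all arrays it differed by 1.21 ± 0.18 (adjusted p = 1.9e-05). Ptprj, a receptor-type tyrosine phosphatase, read 536.6 to 977.9 above both cuts, 57.2 to 331.6 above the Ephx2 cut only and 34.4 to 387.2 below, and differed by 1.05 ± 0.25 (adjusted p = 0.017). In both genes the middle class lay among the arrays below the cut.

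Other rises among these 46 were Dnaja3, a mitochondrial co-chaperone (1.003 ± 0.18, adjusted p = 0.0011), Il33, an alarmin cytokine (0.82 ± 0.18, adjusted p = 0.0072), and Dnm1, a dynamin of vesicle scission (0.81 ± 0.19, adjusted p = 0.011). Afm, the plasma protein afamin, rose by 0.75 ± 0.17 (adjusted p = 0.010). Mep1b, the beta subunit of the brush border protease meprin, rose by 0.63 ± 0.14 (adjusted p = 0.0071). It was the only called member among 41 measured proximal tubule genes (2.44%), against 1.04% of all named genes. Bhmt, which remethylates homocysteine with betaine, rose by 0.52 ± 0.12 (adjusted p = 0.010). Its medians were 828.6, 366.4 and 376.7 above both cuts, above the Ephx2 cut only and below, with 585.8 as the lowest reading above both cuts and 606.2 as the highest below.

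Acsm3, the medium-chain acyl-CoA synthetase known as the SA gene of hypertensive rats, had the second largest fall among genes represented by their brightest probe set. It read 30.6 to 525.8 (median 196) above both cuts and 175.2 to 2294.4 (median 1484) above the Ephx2 cut only, against 107.9 to 4427.3 (median 2163) below, and differed by -1.87 ± 0.39 (adjusted p = 0.0051). It was the only called member of 14 measured genes on the list reported in SHR, against 1.04% of all named genes. Itga1, the alpha-1 subunit of a collagen-binding integrin, read 193.9 to 1196.4, 935.1 to 1707.5 and 973.9 to 7046.1 in the same order of classes and differed by -1.06 ± 0.21 (adjusted p = 0.0018). Rdh16, a retinol dehydrogenase, read 139.6 to 588.1 above both cuts, with 825.4 to 2047.7 above the Ephx2 cut only and 571.5 to 2077 below. It differed by -0.95 ± 0.20 (adjusted p = 0.0067), while its second probe set U33500_at differed by -0.48 (adjusted p = 0.150).

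Smaller falls were called for Lbp, the lipopolysaccharide-binding protein (-0.69 ± 0.13, adjusted p = 0.0012), Tmeff1 (-0.60 ± 0.15, adjusted p = 0.022, with a mean above the cut under the filter and adjusted p = 0.028 with no filter, 0.081 without stage and 0.053 with the technical set as a block) and Idi1 of isoprenoid synthesis (-0.58 ± 0.15, adjusted p = 0.041). Csrp3, a muscle LIM protein, fell by 0.57 (adjusted p = 0.019), and Gc, the vitamin D-binding protein, differed by -0.56 ± 0.13 (adjusted p = 0.010). Clu, the secreted chaperone clusterin, which rises in injured tubules, had medians of 958.4 above both cuts, 1447 above the Ephx2 cut only and 1591 below and differed by -0.45 ± 0.10 (adjusted p = 0.0071).

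MHC class II proteins present peptides to helper T cells, and RT1-Bb, RT1-Ba and RT1-Db1 encode chains of them in the rat. Probe sets of RT1-Bb moved in opposite directions. X56596_at of RT1-Bb, which sets the class above both cuts, differed by 1.69 ± 0.33 (adjusted p = 0.0018). U65217_i_at of the same gene read 0.9 to 23.7 above both cuts, with 339.3 to 877 above the Ephx2 cut only and 174.2 to 836.9 below, and differed by -2.05 ± 0.42 (adjusted p = 0.0044). M36151cds_i_at differed by -2.06 (adjusted p = 0.038) and M36151cds_s_at by 0.20 ± 0.12 (adjusted p = 0.461). RT1-Bb thus had no single direction on this array. RT1-Ba rose by 0.88 ± 0.16 on K02815_s_at (adjusted p = 0.0011) and by 0.97 on X07551cds_s_at (adjusted p = 0.0077), and differed by -0.07 on M22366_at (adjusted p = 0.739). RT1-Db1 rose by 1.30 ± 0.22 on X53054_at (adjusted p = 2.0e-04) and 0.51 ± 0.11 on X53054_g_at (adjusted p = 0.0071).

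By their brightest probe sets 2 of 10 measured class II genes were higher and none lower, against 1.04% of all named genes called, and the list median was -0.03. Cd74, the class II invariant chain, differed by -0.26 ± 0.11 (adjusted p = 0.280). In the class I and interferon list 1 of 17 was called, RT1-A3, which was lower, with a difference of -0.68 ± 0.18 (adjusted p = 0.036). Of the immune cell markers 0 of 16 measured members were called. Their summed reading, of which the macrophage lysozyme gene Lyz2 makes a large part (medians 1563, 3403 and 2783), was 3584 to 5959 (median 4531) above both cuts, 6162 to 8772 (median 6705) above the Ephx2 cut only and 3890 to 8006 (median 6293) below, and no marker was at 0 on all arrays. Its part in the RT1 differences was not tested.

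The fit was then repeated on the 43 arrays with X56596_at under 600, 11 above and 32 below the Ephx2 cut. It shares its 32 arrays below the cut with the fit over all arrays, so the values stand side by side and are not independent. At an adjusted p under 0.05, 5 of 6551 probe sets passed (0.0763%), 2 higher and 3 lower, and 845 had an unadjusted p under 0.05. Spock2 differed by -2.43 ± 0.29 (adjusted p = 1.3e-06) and Hba-a3 by 0.96 ± 0.19 (adjusted p = 0.024), and these were the 2 of the 66 that passed. Ndufb3, a subunit of respiratory complex I, differed by 0.53 ± 0.11 (adjusted p = 0.030), against 0.32 (adjusted p = 0.073) over all arrays. Nolc1, a nucleolar phosphoprotein, differed by -0.40 ± 0.08 (adjusted p = 0.030), against -0.16 (adjusted p = 0.363) over all arrays. The probe set rc_AA800184_at, unnamed here, differed by -0.82 ± 0.15 (adjusted p = 0.0061), against -0.29 (adjusted p = 0.331). Medians above both cuts, above the Ephx2 cut only and below were 2639, 3575 and 2552 for Ndufb3 and 329.8, 220.8 and 298.7 for Nolc1. For rc_AA800184_at they were 119.6, 53.8 and 106. On all 3 the middle class thus stood apart by its median, and the arrays above both cuts did not share its direction or did so only slightly. Ndufb3, Nolc1 and rc_AA800184_at are named because they passed, outside the rule for named genes.

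Of the 66 called over all arrays, 60 kept their sign in the arrays with X56596_at under 600. Of the same 66, 33 were smaller than 0.5 of their size, with a median ratio of 0.489. The 66 were selected for large differences in a fit that held the 12 removed arrays, so smaller values are partly fixed by the selection. X56596_at, which chose these arrays, is among the 66. The same shares over all 6551 probe sets were not taken. Ino80e differed by 0.61 ± 0.15 there (adjusted p = 0.116) and Ephx1 by 0.31 ± 0.11 (adjusted p = 0.224), both near their size over all arrays. Cela1 differed by 0.26 ± 0.11 (adjusted p = 0.324), Acsm3 by -0.55 ± 0.43 (adjusted p = 0.584), Bhmt by -0.02 ± 0.10 (adjusted p = 0.941) and RT1-Ba by 0.04 ± 0.10 (adjusted p = 0.870). With the side of X56596_at as a covariate over all 55 arrays, 12 probe sets were called, of which Spock2, Hba-a3 and Ino80e were among the 66. On the side with X56596_at above 600 there was no array below the Ephx2 cut, so no fit was possible.

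**Figure D3:**
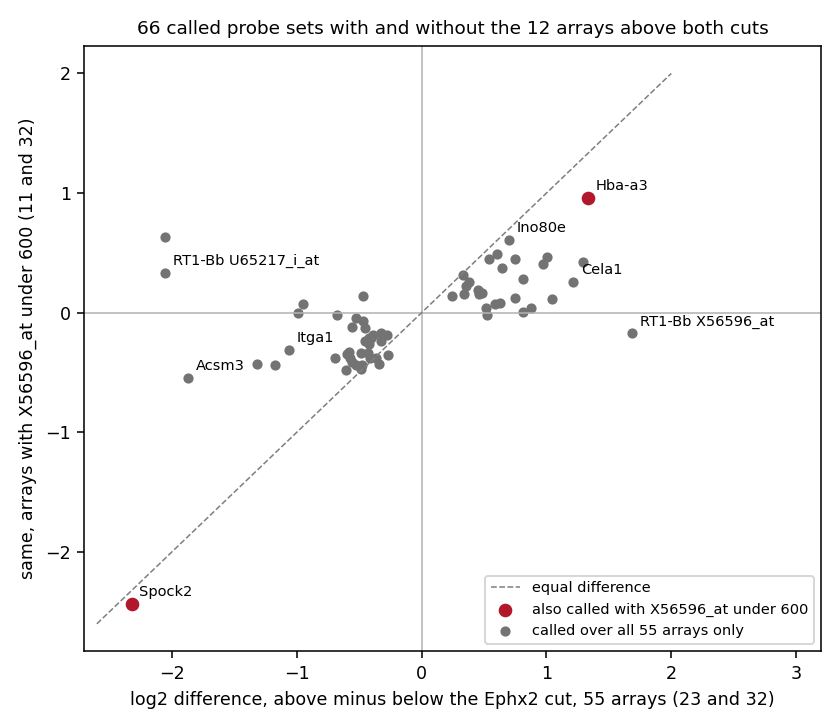
Log2 difference above minus below the Ephx2 cut of the 66 called probe sets, over all 55 arrays on the horizontal axis and over the 43 arrays with X56596_at under 600 on the vertical axis; the dashed line marks equal differences. Spock2 and Hba-a3, in red, passed in both fits, while Cela1 and Acsm3 lie nearer to 0 vertically than horizontally. RT1-Bb U65217_i_at and X56596_at lie at the other sign. The vertical value of X56596_at carries no test, because X56596_at itself selected those arrays.

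**Figure D4:**
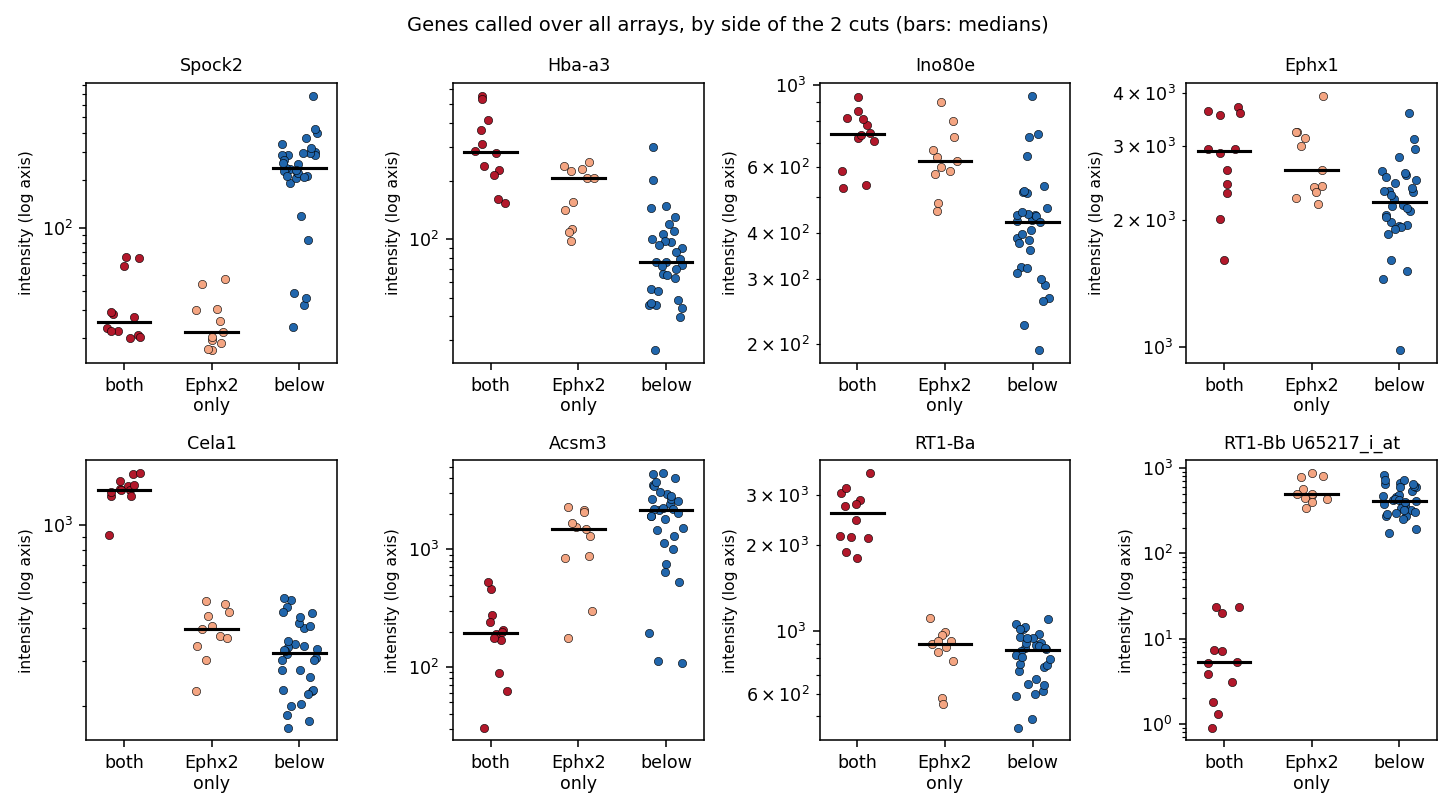
Deposited intensity (log axis) of 8 called probe sets in the 12 arrays above both cuts, the 11 above the Ephx2 cut only and the 32 below it, with bars at the medians. In the upper row the middle class lies with or toward the arrays above both cuts, and in the lower row it lies with the arrays below the cut.

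Spock2 and Hba-a3 are the genes that passed in both fits, so the bases before their start sites are shown. On the continuous Ephx2 level in the arrays with X56596_at under 600, Spock2 passed and Hba-a3 did not (adjusted p = 0.076), and on the split there Hba-a3 also missed the threshold without mature replicate 7 (adjusted p = 0.069). They were taken from RefSeq's GRCr8 assembly and read 5′ to 3′ on the gene's strand, with matches in capitals from a search of both strands for the TATA box core TATAAA, the CCAAT box (letters CCAAT) and the GC box core GGGCGG. Hba-a3 lies at chr10:15816944-15817193 on the minus strand and Spock2 at chr20:28580012-28580261 on the plus strand.
Hba-a3: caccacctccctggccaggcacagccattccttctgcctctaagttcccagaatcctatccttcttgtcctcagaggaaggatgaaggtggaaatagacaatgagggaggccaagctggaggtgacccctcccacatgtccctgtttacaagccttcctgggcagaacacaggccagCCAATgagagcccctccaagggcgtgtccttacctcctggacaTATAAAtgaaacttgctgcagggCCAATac
Spock2: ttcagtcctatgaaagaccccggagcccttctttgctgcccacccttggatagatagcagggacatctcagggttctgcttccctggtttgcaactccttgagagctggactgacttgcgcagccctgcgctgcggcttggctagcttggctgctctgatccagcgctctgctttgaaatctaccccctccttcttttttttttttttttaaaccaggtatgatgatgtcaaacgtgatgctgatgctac
The Hba-a3 window held the TATA box core 30 bases and the CCAAT box 73 and 7 bases before the start, counted to the first base of the match, and the Spock2 window held none of the 3 motifs. Of 33469 promoters of the same length, 12.9% held the TATA box core, 34% the CCAAT box and 30.5% the GC box core on either strand. The searched motifs do not overlap each other. A match is a description of the letters only.

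Inside single stage groups, with the spread pooled over all arrays, the counts were small except in the mature group. No probe set was called in the immature group by limma (241 at an unadjusted p under 0.05), 1 in the young group (0.0153%), 36 in the mature group (0.55%, of which 25 higher at 0.382% and 11 lower at 0.168%) and 1 in the group without a stage word (0.0153%). Spock2 was the single call in the young and unworded groups, at -2.48 ± 0.43 (adjusted p = 0.0029) and -2.29 ± 0.43 (adjusted p = 0.013). It differed by -2.50 ± 0.43 in the mature group (adjusted p = 0.0024) and by -1.99 ± 0.45 in the immature group (adjusted p = 0.270). The mature count rested on a few arrays: it was 0 without mature replicates 1 and 9, which lie below the cut and have a GAPDH 3′/5′ ratio of 7.18 and 3.48, 1 without mature replicate 1 alone and 239 without mature replicate 6. The test of a difference between stage groups called none of 6551 probe sets (357 at an unadjusted p under 0.05), so the counts of the stage groups are not shown to differ in effect.

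The neighbourhood of Ephx2 was compared through the RefSeq gene order of GRCr8. Of 97 tested genes on its chromosome 1 was called (1.03%), against 39 of 3721 on the other chromosomes (1.05%). Of the 20 genes on each side of Ephx2, 14 were tested, and Clu, 3 genes away, was the only call. Chrna2 and Adam2, the tested genes next to Ephx2, differed by 0.16 and 0.08 and did not pass.

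The summed proximal tubule reading was 122076 to 215303 above the cut (median 183184) and 115127 to 231369 below (median 185784), and none of its 41 markers was at 0 on all arrays. By class its medians were 162856 above both cuts, 202372 above the Ephx2 cut only and 185784 below. The medians of the classes above the cut thus lay on either side of the median below it. Their ranges, 122076 to 184912 and 146132 to 215303, both lay within that of the arrays below the cut. The thick ascending limb sums had medians of 18438, 24445 and 22643 in that order, and the podocyte sums 1736, 2363 and 2306. The part of these marker levels in the differences of called genes was not tested. None was called of 8 genes of the thick ascending limb, 27 of the distal nephron or collecting duct, 5 of podocytes, 9 of endothelium and 11 of smooth muscle or mesangium. Krt19, an epithelial keratin, differed by 1.14 ± 0.33 (adjusted p = 0.073), with 17.6 to 645.8 on the arrays below the cut. In the list of fat, adrenal, liver, muscle and urothelial genes 1 of 14 was called, Myh4, a skeletal muscle myosin, with a difference of -0.48 ± 0.13 (adjusted p = 0.046), against 1.04% of all named genes. Of the 14 members 1 lay above 0, with a list median of -0.15 against -0.05 over all named genes, and the summed reading was 3267 to 7684 above and 3331 to 8051 below. By brightest probe set, 0 of 42 members of the glutathione and xenobiotic list, which does not hold Gsto1, 0 of 41 fatty acid oxidation genes and 1 of 34 amino acid and gluconeogenic enzymes passed. Single dimmer probe sets of Gstp1 (X02904cds_s_at, 0.49, adjusted p = 0.039) and Gstt2 (D10026_s_at, 0.34, adjusted p = 0.028) did pass.

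The deposited scaling puts the 2% trimmed mean of every array near 500, at 500.2 to 500.7 above and 500.4 to 500.7 below the cut. The median intensity was 142.6 to 179.6 above (median 153.9) and 136 to 183.3 below (median 160.6). The GAPDH 3′/5′ ratio, a measure of RNA integrity, was 0.89 to 2.62 above and 0.83 to 7.18 below. The labels name no batch. Clustering of control probe sets, cut at 3 by choice, divides the arrays into technical sets. They hold 6 arrays above and 4 below, 8 above and 11 below, and 9 above and 17 below the Ephx2 cut. All 12 arrays above both cuts lie in the first and second sets, 6 in each, and 9 of the 11 above the Ephx2 cut only lie in the third. Under this clustering the difference between the classes above the cut is thus largely confounded with the technical set. Arrays below the cut lie in all 3 sets. Scaled controls gave other sets, of 1 array above and 3 below, 9 above and 15 below, and 13 above and 14 below. Fits inside the 3 sets called 16, 111 and 1 probe sets, and 84 were called with the set as a block, 52 of them among the 66. The fits inside sets are not 1 comparison repeated. Above the cut, the first set holds only arrays above both cuts and the third only arrays above the Ephx2 cut only. Spock2 differed by -1.94, -2.61 and -2.35 inside the 3 sets, and was called in each. Hba-a3 differed by 2.05, 0.97 and 1.11, the last with an adjusted p of 0.151.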

How the data were processed

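Rat kidney RNA was read on 55 Affymetrix arrays of 1 colour. The authors deposited a linear intensity for each of 8799 probe sets; how they were summarised and scaled is not given in the sources used here. From each deposited intensity, log2 was taken after adding 15.82, which is 0.1 times the median value. No value was negative. The 59 control probe sets were left out, as were probe sets with a mean log2 value below the 25th percentile, which left 6555. The 4 Ephx2 probe sets were set aside, so 6551 were tested. The platform annotation names 1 gene for 7018 probe sets, several for 308 and none for 1473. Symbols were updated through the gene identifier for 6994, with the RefSeq table of assembly GRCr8. Where a gene had several probe sets, the brightest on average stood for it.

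The fit was limma 3.58.1 (R 4.3.3, lmFit and eBayes, 2-sided), with the Benjamini-Hochberg adjustment over all probe sets tested and a threshold of 0.05. Stage word was the covariate, and a cell means model gave the stage groups and the test between them. The number of arrays limits the precision. On simulated data with 6551 probe sets, the fit over all arrays recovered 77.6%, 100% and 100% of changes of 0.5, 1 and 2 on the log2 scale, with 13 of 198 calls false. The fit on arrays with X56596_at under 600 recovered 52.2%, 94.0% and 98.5%, with 7 of 170 calls false. The changes planted numbered 67, 67 and 66 at these sizes. On the real arrays these fits called 66 and 5 probe sets, and the adjustment is stricter where fewer probe sets differ. The simulated noise was normal and independent between probe sets, without technical sets or clusters of arrays. These rates therefore need not hold for the real arrays.

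The named genes are the 12 largest rises and 12 largest falls past the threshold with 1 direction in every stage group, the 10 probe sets most correlated with Ephx2 after removal of stage means, up to 4 members of each of 25 lists by smallest p, every passing eicosanoid, MHC class II and Ephx2-neighbour gene, and X56596_at. A few called probe sets outside the rule are named after their values were seen. No correlation is printed because the arrays form separate clusters. The members, lists and tests were chosen with earlier results of these data known. Both probe sets that begin with X60328 fit the description of the split, and X60328_g_at was kept, as the one with the higher mean, after the array counts of both splits had been seen. The technical sets come from Ward clustering of 42 control probe sets on the log2 scale, cut at 3. This clustering was kept after others had been seen, because its set sizes matched those of an earlier account of these data. Controls scaled per probe set gave sets of 4, 24 and 27 arrays. Alternatives covered offset, filter, scaling, array weights, prior variance, covariates, the cut and each array in turn. Figures were drawn with matplotlib 3.10.9.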

Additional observations from a re-analysis of the deposited data

Results flagged for a closer look

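In groups of 4 to 10 arrays, 1 side of the cut within 1 stage group, single arrays that stood far from the others were looked for in 7 probe sets. Of 56 groups, 7 held such an array. In the 24 groups of probe sets other than Ephx2 there were 5. The limits used would flag about 1 in 20 groups of normal values, but that share does not apply here. Spock2 and Hba-a3 were chosen as calls of this same split, X56596_at made the second split, and young replicate 12 was flagged on both genes. How many chance would flag here is not known. The other 2 are Ephx2 readings, for which that share does not apply either because an Ephx2 reading made the sides. All 7 are given as values only. On Spock2, 3 of the flagged arrays lay below the cut and were lower than the rest of their group. Young replicate 12 read 35.9, with the nearest array at 208.3. Mature replicate 3 read 23.7, with the nearest at 205.4. Replicate 3 without a stage word read 38.5, with the nearest at 212. Another lay above the cut, where mature replicate 12 read 64.1 on Spock2 and the nearest array 25.9. On Hba-a3, young replicate 12 read 300.1 and the nearest array below the cut 100.4. On the Ephx2 probe set X60328_at, immature replicate 4 read 50.8 and the nearest array below the cut 27.5. On X65083cds_at, replicate 13 without a stage word read 11.4 and the nearest array below the cut 30.5.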

How the results depend on the processing

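No paired analysis was possible because the labels give the arrays no replicate numbers that pair the sides of the cut. Alternatives run after seeing the data were the split by X60328_at, the Ephx2 probe sets kept in the adjustment, the sets from scaled controls and the technical-set fits with X56596_at under 600. Over all arrays (66 calls) the count was 122 with array weights, 16, 111 and 1 inside technical sets 1, 2 and 3, 12 with the side of X56596_at as covariate, 116 with the continuous Ephx2 level, 496 with the split by X60328_at, and 48 (without mature replicate 4) to 82 without single arrays. With X56596_at under 600 (5 calls) it was 2 with the filter at the median, 8 after quantile normalisation, 23 with array weights, 3 without stage, 12 with the technical set as a block, 75 with sets from scaled controls, 1 inside set 3, 2 with the continuous level (Hba-a3 lost), 8 without arrays of a GAPDH ratio above 3, 13 with the Ephx2 probe sets kept, and 2 (without young replicate 9) to 12 (without mature replicate 6) without single arrays. The immature count (0) was 2 with array weights, 4 with X60328_at, 3 with the Ephx2 probe sets kept and 0 to 2 without single arrays. The young count (1) was 0 with the filter at the median, 2 with the block, 53 with X60328_at and 3 with the Ephx2 probe sets kept. The mature count (36) was 63 with 4 times the offset, 13 with no filter, 71 with the filter at the median, 71 after quantile normalisation, 0 with array weights, 60 with a trended prior, 189 with the block, 2 with sets from scaled controls, 1 with the X56596_at covariate, 390 with X60328_at, 11 without the arrays next to the cut, 0 without arrays of a GAPDH ratio above 3, 63 with the Ephx2 probe sets kept, and 1 to 239 without single arrays. The unworded count (1) was 0 with the filter at the median, 16 with array weights, 2 with the covariate, 100 with X60328_at, 2 without the arrays next to the cut, 6 with the Ephx2 probe sets kept and 0 to 2 without single arrays. The test between stages (0) gave 64 with X60328_at. Signs turned inside set 3 and with the X56596_at covariate for RT1-Bb U65217_i_at (0.36 and 0.33), RT1-Bb X56596_at (-0.25 and -0.17), Rdh16 (0.13 and 0.068), Dnm1 (-0.18 and -0.009) and Bhmt (-0.069 and -0.021). They also turned for RT1-A3 inside set 3 (0.11), Cd36 inside set 2 (0.11), Slc34a1 inside sets 1 and 2 (0.06 and 0.003) and with the covariate (0.14), RT1-Bb inside set 1 (-0.12), Slc2a5 inside set 1 (-0.015), Alas2 inside set 2 (-0.16) and with the covariate (-0.14) and Bnip3l inside set 1 (0.055). The turn of X56596_at carries no test, since X56596_at set the covariate and set 3 holds no array above 600 on it. The causes of the other turns were not tested. Of the 66 calls, 66 kept their sign with array weights, with the block and after either rescaling, 57 inside set 3 and 59 with the X56596_at covariate. The counts with the Ephx2 probe sets kept include readings that made or repeat the split. Without those, they were 9 with X56596_at under 600, 0 immature, 1 young, 60 mature and 2 unworded, and 66 over all arrays. Signal over background was not analysed.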
